A study of Mus musculus with 15 samples.

Results

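The genes described here are 10 genes of the choroid plexus epithelium: Ttr, Enpp2, Kcnj13, Folr1, Prlr, Kl, Clic6, Ptgds, Otx2 and Aqp1. They were taken by symbol from a deposited table of 65964 entries, through the mouse Ensembl identifier of each entry, and all 10 were found, each as 1 entry. The choroid plexus is a folded, vascular tissue inside the brain ventricles, and its epithelium secretes cerebrospinal fluid. The epithelial cells pass sodium, chloride, bicarbonate and water into the ventricle through polarised transporters and channels, and they release carrier proteins and hormones into the fluid. Transthyretin is the best known product of these cells, and its transcript is widely used in mouse brain samples as a sign that choroid plexus tissue is present.

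The libraries are total RNA from brain of C57BL/6 mice, and all 15 carry the label of a temporal lobe epilepsy model induced with KA, the untreated controls included. KA is the usual short form of kainic acid, an excitotoxin that acts on glutamate receptors. There were 5 groups of 3 libraries: APOE_H and APOE_L, whose treatment label names KA and APOE together, KA_H and KA_L, labelled as given KA, and CTRL_L, labelled as untreated. No label explains the APOE manipulation, the letters H and L or the age of the mice. Nothing in the labels ties the 3 libraries of a group to different mice either, so the p-values measure the spread between libraries, which may be technical. No untreated H group was analysed, so H and L could be compared within KA and within APOE only.

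Values are in TPM, a transcript abundance scaled to gene length and to a fixed total per library. Such values keep no trace of sequencing depth, which is therefore unknown, and counting error cannot be stated. A value of exactly 0 in such a table can be a failed estimate, and these genes are described as listed at 0. In bulk RNA, fewer cells of a type and less RNA per cell cannot be told apart.

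Sequence upstream of the start site is shown for 2 members with different roles, a channel gene and the transcription factor of the set, because their windows held matches to the motifs searched. RefSeq windows (mouse GRCm38.p6) of the 250 bases before each annotated start covered 6 of the 10 members in 11 windows. The windows were searched on both strands for TAATCC, a sequence bound by OTX-type homeodomain proteins, and for TATAAA, the core of the TATA box. TAATCC was found in 1 of the 11 member windows, against 6.25% of all 32851 windows, and TATAAA in 2 of the 11, against 12.4% of all windows. The Kcnj13 window, at chr1:87394730-87394979 on the minus strand, held TATAAA near its 3′ end. One of 4 Otx2 windows, at chr14:48665110-48665359 on the minus strand, held TAATCC on the other strand, read here as GGATTA. Capitals mark those matches, and both sequences run 5′ to 3′ toward the start site.
Kcnj13 upstream: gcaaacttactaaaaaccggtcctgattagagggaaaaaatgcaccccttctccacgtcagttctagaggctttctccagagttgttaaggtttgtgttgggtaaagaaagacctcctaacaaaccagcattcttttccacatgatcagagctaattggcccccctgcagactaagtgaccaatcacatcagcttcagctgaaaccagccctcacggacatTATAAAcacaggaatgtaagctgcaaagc
Otx2 upstream: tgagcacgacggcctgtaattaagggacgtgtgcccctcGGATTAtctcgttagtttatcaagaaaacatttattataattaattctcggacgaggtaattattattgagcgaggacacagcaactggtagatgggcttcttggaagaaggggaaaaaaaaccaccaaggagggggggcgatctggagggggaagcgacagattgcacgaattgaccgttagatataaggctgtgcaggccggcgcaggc
A match of this kind describes the letters in the window and shows no binding.

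Among the secreted products, Ttr (ENSMUSG00000061808) encodes transthyretin, the carrier of thyroid hormone and retinol-binding protein in cerebrospinal fluid. It stood at 24454, 41384 and 38126 TPM in APOE_H and 23632, 24072 and 28110.1 TPM in KA_H. Ttr in the L libraries was at 136, 1.46 and 189.7 TPM in APOE_L, 31.6, 781 and 114 TPM in KA_L and 54.1, 20666 and 10235 TPM in CTRL_L. All 6 H libraries lay above all 9 L libraries, and the first control library was far below the other 2 controls. Enpp2 (ENSMUSG00000022425), which encodes autotaxin, the secreted enzyme that makes lysophosphatidic acid, had 12437, 14928 and 17902 TPM in APOE_H and 8384, 11189 and 11243 TPM in KA_H. Enpp2 in the L libraries had 95.9, 119.7 and 106 TPM in APOE_L, 25.9, 484 and 51.5 TPM in KA_L and 85.2, 16612 and 12721 TPM in CTRL_L. Its lowest level in any library was 25.9 TPM, and 2 controls reached the levels of the H libraries. Ptgds (ENSMUSG00000015090) encodes the lipocalin-type prostaglandin D synthase, an abundant protein of cerebrospinal fluid that is also made by leptomeningeal cells and oligodendrocytes. Its levels were 1136, 1812 and 2336 TPM in APOE_H and 1083, 909 and 1199.8 TPM in KA_H. Ptgds in the L libraries was at 0, 0.89 and 14.7 TPM in APOE_L, 0, 124 and 1.73 TPM in KA_L and 32.0, 846 and 249.7 TPM in CTRL_L. Here the first control library, at 32.0 TPM, was closer to the KA_L and APOE_L libraries than to the other controls.

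Of the receptors and membrane-bound factors, Folr1 (ENSMUSG00000001827) encodes folate receptor alpha, which carries folate across the choroid plexus. It had 428, 785 and 683 TPM in APOE_H and 152, 150.5 and 201 TPM in KA_H. Folr1 in the L libraries was at 0.12, 0 and 0 TPM in APOE_L, 0.06, 0 and 0 TPM in KA_L and 0, 371 and 114 TPM in CTRL_L. The 3 APOE_H libraries were all above the 3 KA_H libraries. Prlr (ENSMUSG00000005268), the prolactin receptor gene, had 118, 96.8 and 111 TPM in APOE_H and 86.2, 107 and 134 TPM in KA_H. Prlr in the L libraries had 0.03, 0.01 and 0.02 TPM in APOE_L, 0, 0.01 and 0.01 TPM in KA_L and 0.07, 187 and 158 TPM in CTRL_L. Its H groups overlapped, and each KA_L library was below each control library although the lowest control had 0.07 TPM. Kl (ENSMUSG00000058488) encodes Klotho, the co-receptor for fibroblast growth factor 23 that is also shed into the fluid. Its levels were 183, 147 and 212 TPM in APOE_H and 55.0, 76.4 and 90.6 TPM in KA_H. Kl in the L libraries was at 0, 0 and 0.86 TPM in APOE_L, 0.02, 5.13 and 0.02 TPM in KA_L and 0.01, 93.4 and 138 TPM in CTRL_L. As with Folr1, the APOE_H libraries did not overlap with the KA_H libraries.

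Of the channels, Kcnj13 (ENSMUSG00000079436) encodes the inwardly rectifying potassium channel Kir7.1 of the apical membrane. It had 614, 943 and 1293 TPM in APOE_H and 779, 1125 and 1303 TPM in KA_H. Kcnj13 in the L libraries was at 0.04, 4.52 and 0.04 TPM in APOE_L, 0.05, 0.01 and 0 TPM in KA_L and 0.05, 957 and 326 TPM in CTRL_L. Every H library had at least 614 TPM, and every KA_L and APOE_L library had at most 4.52 TPM. Clic6 (ENSMUSG00000022949), a member of the chloride intracellular channel family, had 76.8, 64.2 and 299 TPM in APOE_H and 26.6, 23.4 and 86.8 TPM in KA_H. Clic6 in the L libraries was at 0 TPM in all 3 APOE_L libraries, 0, 11.1 and 0 TPM in KA_L and 0, 45.7 and 114 TPM in CTRL_L. The third library of each H group was well above the other 2 of its group. Aqp1 (ENSMUSG00000004655) encodes the water channel aquaporin-1, which sits in the apical membrane of these cells. Its levels were 13.8, 12.1 and 68.6 TPM in APOE_H and 4.68, 13.5 and 13.7 TPM in KA_H. Aqp1 in the L libraries was at 0.04, 0.06 and 0 TPM in APOE_L, 0, 0 and 0.02 TPM in KA_L and 0, 26.4 and 0 TPM in CTRL_L. It had the lowest level of the 10 in 5 of the 6 H libraries, and among the controls it was listed above 0 in 1 library.

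Otx2 (ENSMUSG00000021848) encodes a homeodomain transcription factor that choroid plexus cells need to form and to keep their identity. It had 33.1, 46.9 and 125 TPM in APOE_H and 43.4, 1.79 and 15.2 TPM in KA_H. Otx2 in the L libraries was at 0 TPM in all 3 APOE_L libraries, 0 TPM in all 3 KA_L libraries and 0, 168 and 61.4 TPM in CTRL_L. All 6 KA_L and APOE_L libraries were listed at 0, whereas 2 of the 3 controls were at or above the levels of most H libraries. The plot of the members by library shows the shared pattern.

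**Figure D1:**
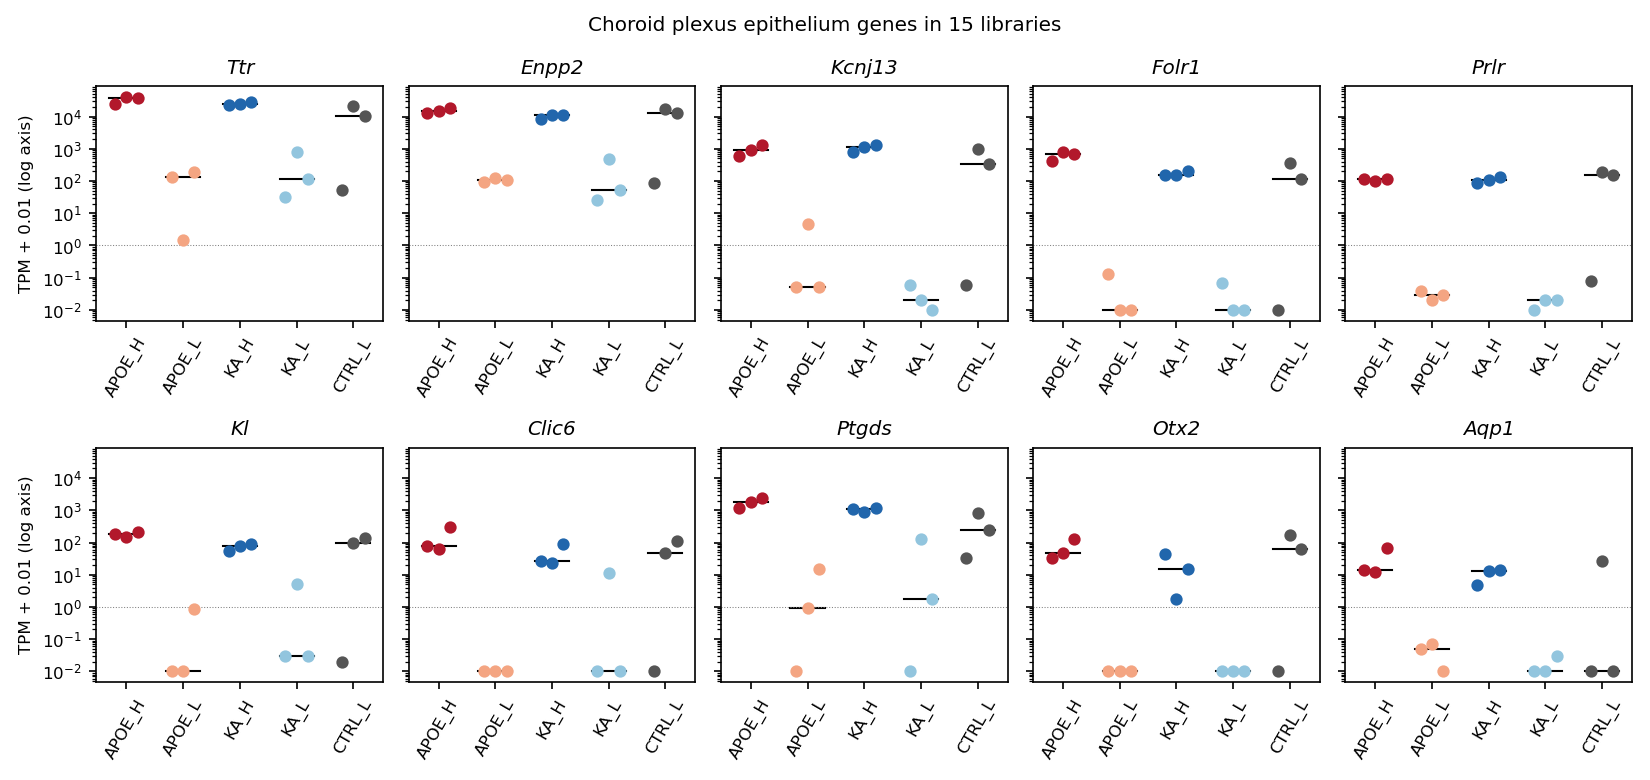
Level of each of the 10 genes in 15 libraries, in TPM with 0.01 added, on a log axis. Each point is 1 library, each black bar the median of 3, and the dotted line marks 1 TPM. All 6 H libraries and the second control library lie above 1 TPM for every gene, whereas most KA_L and APOE_L points of 7 genes lie near the bottom of the axis.

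Summed over the 10 genes, the level was 39493, 60219 and 61156 TPM in the APOE_H libraries and 232, 127 and 311 TPM in the APOE_L libraries. The sum was 34246, 37667 and 42398 TPM in KA_H, 57.6, 1406 and 167 TPM in KA_L and 171, 39973 and 24118 TPM in CTRL_L. These genes therefore took 3.95 to 6.12% of all TPM in APOE_H and 3.43 to 4.24% in KA_H, against at most 0.141% in any KA_L or APOE_L library. The first control library, at 0.0171%, stood apart from the other controls, which were at 2.41% or more. It was the lowest control for 9 of the 10 genes, the exception being Aqp1, for which it and the third control were both listed at 0. The comparison with the controls is given with and without that library.

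The H groups were first set against the L groups of the same treatment, with limma on log2(TPM + 1) fitted to all 15 libraries. P-values were adjusted by the Benjamini-Hochberg method over 17505 entries that reached 1 TPM in at least 3 libraries. All 10 members passed that filter, most of them only through libraries in which they were high. In APOE_H all 10 genes rose against APOE_L, where 4.7% of all entries tested were called higher. Ptgds rose by 9.09 (SE 1.48, limma adjusted p = 0.00346), Folr1 by 9.21 (SE 1.5, limma adjusted p = 0.00346) and Ttr by 9.72 (SE 1.79, limma adjusted p = 0.00629). Kcnj13, Enpp2, Kl, Prlr and Aqp1 rose by 8.97, 7.11, 7.19, 6.74 and 4.53 on the same scale, with limma adjusted p between 0.00673 and 0.0413. Clic6 and Otx2 were also called higher, with limma adjusted p of 0.0154 and 0.0352, and no fold is given because all 3 APOE_L libraries were listed at 0. No member overlapped between the groups, where 20.1% of all entries were without overlap in that direction. The count of 10 was 6 without the third APOE_H library, when Prlr, Clic6, Otx2 and Aqp1 no longer passed, and 8 without any other single APOE_H or APOE_L library. With no filter on low values it was 5, and Ttr, Enpp2, Clic6, Otx2 and Aqp1 no longer passed. The median log2 fold change was 7.15 over the members and 0.54 over all entries. That median and the folds of single genes depend on the pseudocount where a group is at or near 0. With a pseudocount of 0.1 in place of 1, Folr1 rose by 12.20, Prlr by 9.82 and Aqp1 by 7.44, but Enpp2 by 7.13 and Ttr by 9.95.

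In KA_H, 6 of the 10 genes rose against KA_L, where 1.23% of all entries were called higher. Kcnj13 rose by 10 (SE 1.69, limma adjusted p = 0.00894), Enpp2 by 6.85 (SE 1.38, limma adjusted p = 0.0245) and Folr1 by 7.36 (SE 1.5, limma adjusted p = 0.0249). Ptgds, Prlr and Ttr rose by 7.24, 6.75 and 7.46, with limma adjusted p of 0.0251, 0.0320 and 0.0481. For Kl, Clic6 and Aqp1 the log2 fold changes were 5.31, 4.09 and 3.40, with limma adjusted p of 0.0846, 0.220 and 0.214, and for Otx2, listed at 0 in KA_L, the adjusted p was 0.285. With a pseudocount of 0.1, Kcnj13 rose by 13.11 and Folr1 by 10.47, but Enpp2 by 6.88. All 10 members were higher in each KA_H library than in each KA_L library, as were 10.5% of all entries. The count of 6 depended on the settings, being 1 when only the 6 libraries compared entered the fit and 0 with no filter on low values. Single KA libraries mattered as well: the count was 0 without the third KA_H library, 5 without the second KA_L library and 1, Kcnj13, without any other 1 of the 6. Without the first control library, a setting added after seeing the data, it was 7, with Kl as the added gene.

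Averaged over both treatments, H against L was higher for all 10 genes, where 7.72% of all entries were called higher. The log2 fold changes other than those of Clic6 and Otx2 ran from 3.97 for Aqp1 to 9.49 for Kcnj13, and over all 10 genes the limma adjusted p ran from 0.000237 to 0.0122. The size of the H against L difference was then compared between APOE and KA by an interaction term. It passed for 0 of the 10 genes by limma, with 0 at an unadjusted p under 0.05, where 0.0457% of all entries were called in either direction. The interval for Ttr ran from −3.09 to 7.61 on the log2 scale, and the counts of 10 genes in APOE and 6 in KA do not show that the treatments differ.

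**Figure D2:**
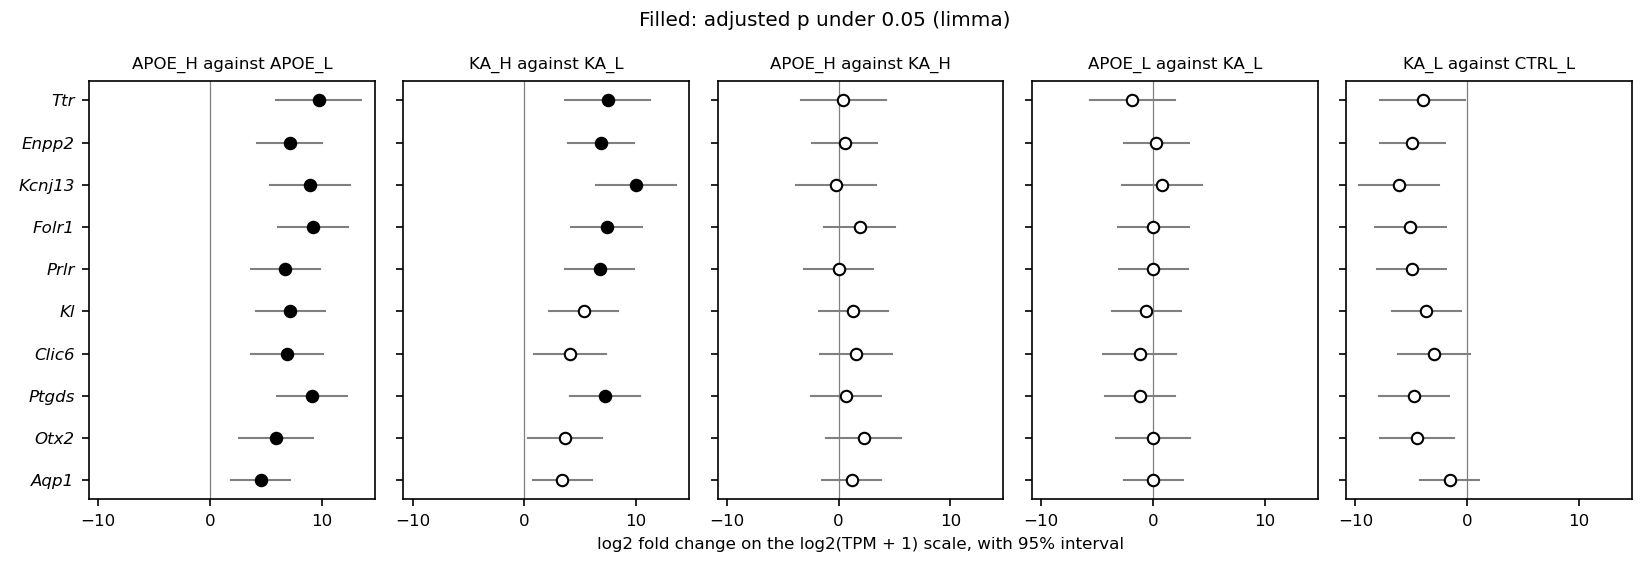
Log2 fold change of each gene on the log2(TPM + 1) scale in 5 comparisons, the first-named group over the second, with its 95% interval as a line. Filled points passed an adjusted p of 0.05 by limma: all 10 in APOE_H against APOE_L, 6 in KA_H against KA_L and 0 in the other panels. Points of genes at or near 0 in a group depend on the pseudocount.

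KA_L was next compared with the untreated CTRL_L libraries, which contrasts KA with no treatment within the L libraries. None of the 10 genes passed by limma, where 0.4% of all entries were called lower, although all 10 estimates were below 0. Of the 10, 8 had an unadjusted p under 0.05, as did 1945 of the 17505 entries tested, in either direction. The log2 fold change was −4.90 (SE 1.38, limma adjusted p = 0.159) for Enpp2, −6.08 (SE 1.69, limma adjusted p = 0.153) for Kcnj13 and −3.99 (SE 1.79, limma adjusted p = 0.418) for Ttr. Over the members the median was −4.61, against 0.00 over all entries. Only Prlr, 1 of the 10, had no overlap between the groups, where 4.54% of all entries were lower without overlap. The first control library was then left out, a choice made because these same genes were low in it. In that setting 7 of the 10 genes fell, where 1.01% of all entries were called lower. The p-values of that setting are therefore no independent test of these genes. Kcnj13 then fell by 9.10 and Enpp2 by 7.37 on the log2 scale, with limma adjusted p of 0.000164 and 0.000284. Folr1, Prlr, Kl, Otx2 and Ttr were the other 5, with adjusted p between 0.000451 and 0.0334, while Clic6, Ptgds and Aqp1 had adjusted p of 0.0732, 0.0773 and 0.545. The call for KA_L against CTRL_L therefore rests on whether that control is kept.

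APOE was set against KA within each letter. In the L libraries, 0 of the 10 genes passed by limma for APOE_L against KA_L and 0 had an unadjusted p under 0.05, where 0.0457% of all entries were called in either direction. Ttr had a log2 fold change of −1.84 (SE 1.79, limma adjusted p = 0.874), and 5 of the 10 estimates were positive. In the H libraries, 0 of the 10 passed by limma for APOE_H against KA_H, 0 had an unadjusted p under 0.05 and 0.531% of all entries were called in either direction. The estimates were positive for 9 of the 10, with a median of 0.92 against 0.25 over all entries. Enpp2, Folr1 and Kl had no overlap between groups, a pattern that 14.6% of all entries showed. Folr1 averaged 632 ± 184 TPM in APOE_H and 168 ± 29.1 TPM in KA_H (SD, n = 3 each), a log2 fold change of 1.87 with an interval from −1.29 to 5.04 and a limma adjusted p of 0.814. Kl averaged 181 ± 32.5 TPM in APOE_H and 74.0 ± 17.9 TPM in KA_H, a log2 fold change of 1.29 with an interval from −1.80 to 4.38 and a limma adjusted p of 0.880. Enpp2 averaged 15089 ± 2736 TPM in APOE_H and 10272 ± 1635 TPM in KA_H, with a limma adjusted p of 0.969. With the first control or all control libraries left out of the fit, 0 of the 10 passed as well.

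Levels relative to Ttr in the same library were compared because a ratio within a library does not change with the scaling of that library. These 9 ratios were chosen after seeing the data. Per 1000 TPM of Ttr, Folr1 had 17.5, 19.0 and 17.9 TPM in the APOE_H libraries, 6.42, 6.25 and 7.17 TPM in KA_H and 0, 18.0 and 11.2 TPM in CTRL_L. The APOE_H ratios were close to each other and all above KA_H, by 2.75 times on the geometric mean. For Kl the ratios were 7.48, 3.56 and 5.56 in APOE_H, 2.33, 3.17 and 3.22 in KA_H and 0.185, 4.52 and 13.5 in CTRL_L. Kl was thus 1.84 times higher relative to Ttr in APOE_H, also without overlap. The exact permutation p was 0.1 for both, the smallest that 3 against 3 allows, and 0.36 when adjusted over the 9 ratios. Enpp2 relative to Ttr had a ratio of 1.09 between APOE_H and KA_H and Kcnj13 one of 0.648, and in both the groups overlapped (exact permutation p of 0.5 and 0.2). The remaining 5 ratios also overlapped. None of the 9 ratios passed after adjustment. In the first control, where Ttr was at 54.1 TPM, the ratios rest on low levels.

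**Figure D3:**
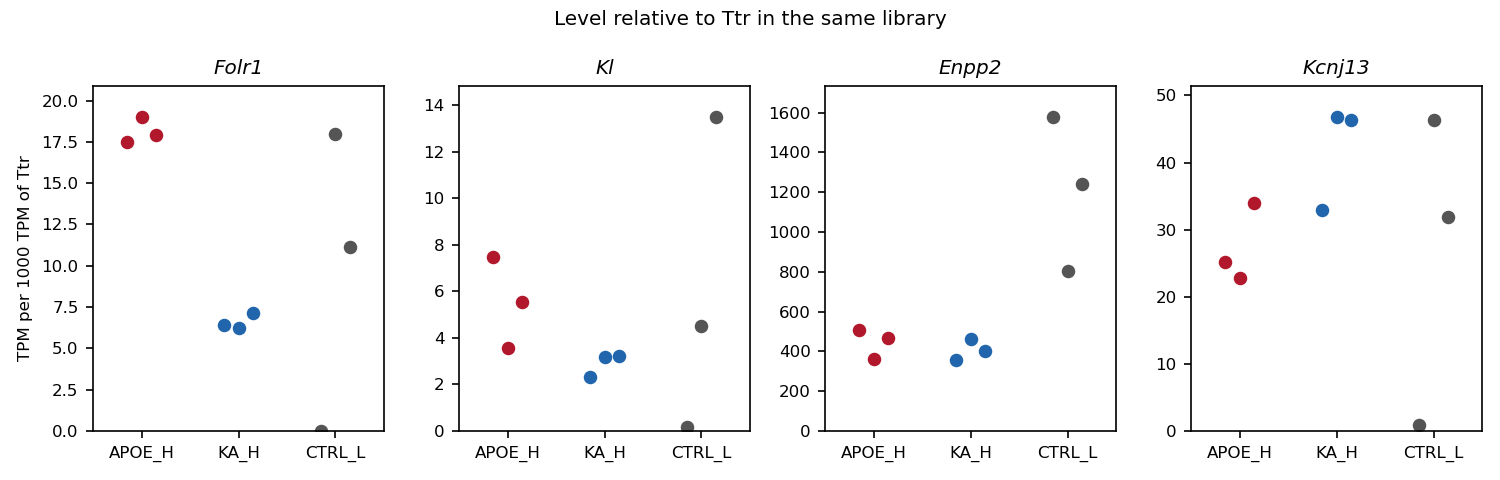
TPM per 1000 TPM of Ttr for 4 genes in the APOE_H, KA_H and CTRL_L libraries, 1 point per library on linear axes that start at 0. For Folr1 and Kl all APOE_H points lie above all KA_H points, and for Enpp2 and Kcnj13 the groups overlap.

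How the genes varied together inside groups was measured on the deviation of each library from its group mean on the log2(TPM + 1) scale. Each of the other 9 members was correlated with Ttr over 15 libraries, with an exact test over all 7776 arrangements of the Ttr deviations within groups. Kl had the highest correlation, with Pearson r = 0.831 and Spearman rho = 0.814 (exact permutation adjusted p of 0.0776 and 0.0509 over 9 genes). Enpp2 followed with r = 0.809 and rho = 0.689 (adjusted p 0.0776 and 0.105, exact). Folr1, Clic6, Prlr, Ptgds and Otx2 had r between 0.652 and 0.745, Kcnj13 had 0.578 and Aqp1 had 0.388. None of the 9 passed the threshold of 0.05 after adjustment, but 1 passed without the first APOE_L or the first APOE_H library and 2 without the second APOE_L library. Without the 2 libraries farthest from the median Ttr deviation, the first control and the second APOE_L library, r was 0.840 for Enpp2 and 0.797 for Kl, and 0.431 for Otx2. The group means for these r still included the 2 libraries. The remaining controls thus kept deviations set by the first control, and these r cannot show whether the relation holds without it. Without the control group r ran from −0.722 for Kcnj13 to 0.621 for Ptgds, with exact adjusted p of 0.478 or more. The relation to Ttr inside groups thus rests largely on the controls.

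Across all 45 pairs of members, r was positive for 45 and had a median of 0.756. Without the controls the median was 0.138 and 37 of 45 were positive. Over the 6 H libraries alone the median was 0.595 and 40 of 45 were positive, and over the 6 KA_L and APOE_L libraries the median was 0.102 for the 36 pairs with a value. These are descriptions over the same few libraries, which share their scaling. In the H groups the third KA_H library was the highest of its group for 9 of the 10 genes, and the third APOE_H library was the highest of its group for 7. In the controls the second library was the highest for 8 genes and the third for the other 2, Kl and Clic6. Neither the pairs nor the order of libraries inside groups were counted over all entries. Whether these patterns are particular to the members was not tested.

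**Figure D4:**
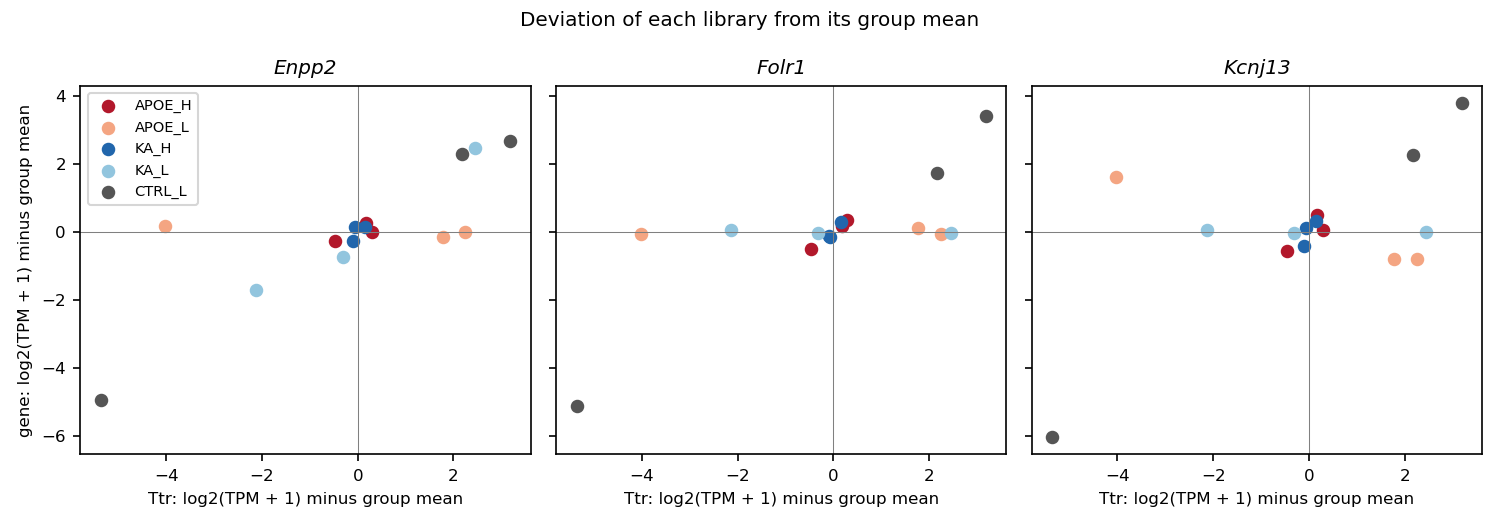
Deviation of each library from its group mean on the log2(TPM + 1) scale, with Ttr on the horizontal axis and Enpp2, Folr1 or Kcnj13 on the vertical axis. Each point is 1 of 15 libraries, coloured by group. The control library at the far lower left has the lowest joint deviation in the panels.

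The genes whose levels followed Ttr most closely were ranked among 10693 other entries with a symbol and a mean of at least 5 TPM, by Pearson r of log2(TPM + 1) over the 15 libraries. The 10 with the highest r were Fxyd1 (0.950), Cryab (0.947), Calml4, Kcne2, 1500015O10Rik, Pcp4l1, Tmem205, Stk39, F5 and Sostdc1 (0.930). Of these, Calml4, Kcne2, 1500015O10Rik, F5 and Sostdc1 are on the list of further choroid plexus genes described below. Kl had as high an r as the first of them, at 0.950, and Aqp1 had the lowest of the members, at 0.805, with 195 other entries above it. On the deviations inside groups another set came first, led by Stx18 (0.963) and Relch (0.958), followed by Gnpnat1, Etfa, Slc25a39, Caap1, Gm14303, Cdc16, Kiz and Fam204a. None of those 10 is on a list used here. Over deviations, 43 other entries had a higher r than Kl and 1731 a higher r than Aqp1, so the members did not lead that ranking.

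A list of 46 further genes of the choroid plexus epithelium, of which 45 passed the filter, was then counted. As with the members, many of these genes passed it only through libraries in which they were high. In APOE_H 34 of the 45 rose against APOE_L, in KA_H 13 rose against KA_L and 38 rose in H against L averaged, with 0 lower in each. Over all entries tested, 4.7%, 1.23% and 7.72% were called higher in these comparisons. The median log2 fold change of the list was 6.30 in APOE_H against APOE_L, where it was 0.54 over all entries. It was 4.22 in KA_H against KA_L, where it was 0.11 over all entries, and 5.39 in H against L averaged, where it was 0.32. By the smallest adjusted p, Rdh5 (retinol dehydrogenase 5), Atp1b1 (the beta 1 subunit of the sodium pump), Igfbp2 (an insulin-like growth factor binding protein), Cox8b (a mitochondrial cytochrome oxidase subunit) and Igf2 (insulin-like growth factor 2) led in APOE_H against APOE_L. Atp1b1 had 138, 133 and 214 TPM in APOE_H, at most 0.22 TPM in each APOE_L library, 73.9, 50.6 and 70.4 TPM in KA_H and at most 0.03 TPM in each KA_L library. Its log2 fold change was 7.13 (SE 0.95, limma adjusted p = 0.00114) in APOE and 6.00 (SE 0.95, limma adjusted p = 0.0059) in KA. Rdh5 rose by 8.23 (SE 1.02, limma adjusted p = 0.00057) in APOE and by 5.90 (SE 1.02, limma adjusted p = 0.00974) in KA. Cox8b and Prr32, listed at 0 in all KA_L and APOE_L libraries, were higher in KA_H with limma adjusted p of 0.00533 and 0.0142. Igfbp2 had 648, 907 and 888 TPM in APOE_H and 90.1, 193 and 210.2 TPM in KA_H, with a limma adjusted p of 0.670 for that difference.

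Against the controls, 2 of the 45 fell in KA_L, where 0.4% of all entries were called lower. They were Atp1b1 with a log2 fold change of −6.38 (SE 0.95, limma adjusted p = 0.00552) and Rdh5 with −5.10 (SE 1.02, limma adjusted p = 0.0363). Atp1b1 had 20.9, 190.1 and 145 TPM in CTRL_L and Rdh5 had 25.9, 290 and 38.5 TPM. The first control library was then left out for its low levels of the members. In that setting 16 of the 45 fell, where 1.01% of all entries were called lower. The further genes were low in that library too, with a sum of 235 TPM against 5766 and 3162 TPM in the other controls. The count of 16 is therefore no independent test of these genes either. For APOE_L against KA_L, for APOE_H against KA_H and for the interaction, 0 of the 45 passed by limma, with 0, 4 and 1 at an unadjusted p under 0.05. Of the 17505 entries tested, 1373, 1510 and 1456 were at that level.

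Markers of other cell types moved with some of these groups, and their part in the results was not tested. Of 10 ependymal genes, which mark the ciliated cells that line the ventricles, the summed level was 235 to 516 TPM in APOE_H, 0 to 30.7 TPM in APOE_L, 398 to 661 TPM in KA_H, 0.09 to 109 TPM in KA_L and 0 to 465 TPM in CTRL_L. Of the 8 that passed the filter, 5 were called higher in APOE_H against APOE_L, 1 in KA_H against KA_L and 6 in H against L averaged, by limma. The shares of all entries called higher were 4.7%, 1.23% and 7.72%. Some of the 8 passed only through libraries in which they were high, such as Ak7, which reached 1 TPM in the 3 APOE_H libraries alone. The first 3 genes on the list were at or near 0, with Foxj1 at most 2.31 TPM, Ccdc153 at most 0.12 TPM and Tmem212 listed at 0 in every library. Dynlrb2, Pifo, Mia and Cfap126, by contrast, were between 20.0 and 276 TPM in every H library. For 12 leptomeningeal and fibroblast genes the sum was 10.5 to 57.0 TPM in APOE_H, 0.01 to 0.81 TPM in APOE_L, 1.53 to 29.6 TPM in KA_H, 0 to 0.13 TPM in KA_L and 0 to 0.21 TPM in CTRL_L. The sum was thus higher in every H library, but only Fbln1 passed the filter, at 16.3, 8.51 and 24.6 TPM in APOE_H and 25.1, 1.53 and 3.98 TPM in KA_H. Of the first 3 genes on the list, Dcn and Lum passed 1 TPM only in the first APOE_H library, and Col1a1 was at most 0.04 TPM. All 10 microglial genes, P2ry12, Tmem119 and Cx3cr1 among them, were at 32.7 TPM or more in every library, and their sum was 15163 to 22881 TPM in APOE_H, 9085 to 11268 TPM in APOE_L, 9360 to 10589 TPM in KA_H and 6227 to 9786 TPM in KA_L. In CTRL_L the microglial sum was 27207 TPM in the first library, against 7184 and 10307 TPM in the other 2.

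The neuronal list, led by Rbfox3, Snap25 and Syt1, summed to at most 24.1 TPM in APOE_H, 2.71 TPM in APOE_L, 0.09 TPM in KA_H, 0.99 TPM in KA_L and 66.5 TPM in CTRL_L, low for libraries labelled as brain. The astrocyte list summed to 86.5 to 106 TPM in APOE_H, 96.4 to 163 TPM in APOE_L, 42.7 to 86.4 TPM in KA_H, 138 to 160 TPM in KA_L and 188 to 331 TPM in CTRL_L, and Gfap was at most 3.53 TPM. The oligodendrocyte list summed to 1169 to 1653 TPM in APOE_H, of which Trf, which choroid plexus cells also express, made up 1103 to 1552 TPM, against at most 544 TPM for the list in any other group. Endothelial genes summed to 128 to 175 TPM in APOE_H, 6.28 to 99.7 TPM in APOE_L, 99.3 to 671 TPM in KA_H, 44.3 to 270.4 TPM in KA_L and 63.5 to 183 TPM in CTRL_L. Border macrophage genes summed to 129 to 614 TPM in APOE_H, 149 to 269 TPM in APOE_L, 239.8 to 581 TPM in KA_H, 3.81 to 85.6 TPM in KA_L and 1.07 to 47.1 TPM in CTRL_L. Red blood cell genes summed to 43.7 to 749 TPM in APOE_H and 384 to 4092 TPM in KA_H. Their sum was 81 to 156 TPM in KA_L and 0.1 to 126 TPM in CTRL_L. By library it was 185, 7386 and 0.1 TPM in APOE_L. In the plot of summed levels, the further choroid plexus genes are higher in every H library than in every KA_L and APOE_L library, as the 10 members are, but the order of libraries inside a group was not the same in both lists. In APOE_L the member sum was highest in the third library, where the sum of the further genes was lowest.

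**Figure D5:**
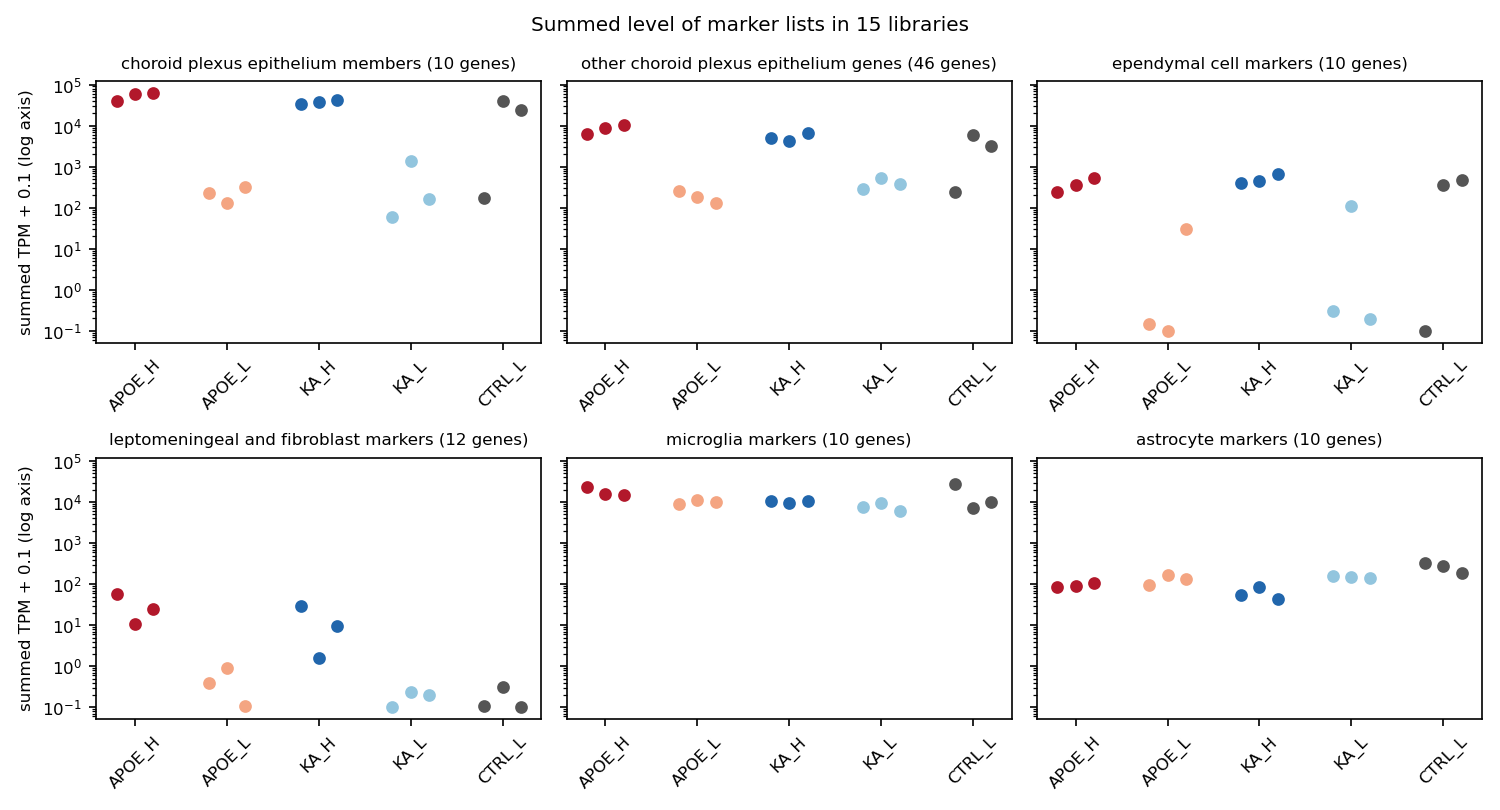
Summed TPM, with 0.1 added on a log axis, of 6 marker lists in 15 libraries, 1 point per library. The members and the further choroid plexus genes are high in all H libraries and in 2 controls, the microglial sum is at least 6227 TPM in every library, and the ependymal and leptomeningeal sums are lower than the member sums in every library.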

How the data were processed

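The deposited table holds 1 TPM value per entry and library for 15 libraries, and the authors' table lists 55416 Ensembl identifiers and 10548 assembled loci. Reads were aligned with STAR, and the build named is GRCh38, a human build, per the submitters' processing notes. The identifiers are mouse. The quantifier, annotation and use of strand are not given in the sources used here. Symbols came from GENCODE M21 names, which matched 52083 identifiers. Libraries were grouped by label.

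A filter kept the 17505 entries that reached 1 TPM in 3 or more libraries, and these were fitted with limma 3.58.1 (R 4.3.3) on log2(TPM + 1), with 1 mean per group over all 15 libraries, a mean-variance trend and Benjamini-Hochberg adjustment at 0.05. A fold change on this scale understates the change of low genes. Scripts were tested on simulated data. Exact permutations used Python 3.11.15 (scipy 1.17.1).

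The members and marker lists were chosen with earlier results of these data known. Named beside the 10 members were, of the further choroid plexus genes, the 5 with the smallest adjusted p per direction and comparison, and the 10 entries most like Ttr. Marker lists covered further choroid plexus epithelium, ependymal, leptomeningeal, oligodendrocyte, endothelial, red blood cell, microglial, border macrophage, astrocyte and neuronal genes. Alternatives were another pseudocount, filter, scaling, set of libraries, no trend, a replicate block and leaving out each library.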

Additional observations from a re-analysis of the deposited data

How the results depend on the processing

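All 10 genes stayed higher in H against L averaged over KA and APOE under every alternative run. Against the main count of 6 in KA_H over KA_L, no filter on low values gave 0 and fitting only the libraries compared gave 1. Leaving out 1 of its 6 libraries gave 0 to 5. Leaving out the first control or all controls, settings added after seeing the data, gave 7. In that comparison Ttr no longer passed with a pseudocount of 0.1, and neither Ttr nor Enpp2 passed without the mean-variance trend. Against 10 in APOE_H over APOE_L, no filter gave 5, leaving out 1 of its 6 libraries gave 6 to 8, and leaving out the first control gave 10. For KA_L against CTRL_L, leaving out 1 of its 6 libraries gave 0 to 7 in place of 0, with 7 lower without the first CTRL_L library and 1, Ptgds, without the second KA_L library. The number of genes correlated with Ttr inside groups was 0, and 0 to 2 with 1 library left out. Aqp1 in KA_L against CTRL_L ran from −2.38 without the first control to 0.0095 without the second, a change of sign on the log2 scale. The cause of these shifts was not tested. With a replicate block the counts were 5 in KA_H over KA_L and 9 in APOE_H over APOE_L. Deviations of same-numbered libraries had r between −0.0263 and 0.0365 over 30 pairs, 15 of them best with their own number. The labels do not say what the number stands for, and whether same-numbered libraries share a mouse or a batch was not tested. Upper quartile scaling moved the median of all entries in KA_H over KA_L to 0.54 and quantile scaling to −0.11, from 0.11, with 7 genes called under each.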

Other observations

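Of the 10 genes on the ependymal list, Dynlrb2, Pifo, Mia and Cfap126 were high in every H library, while Foxj1, Tmem212 and Ccdc153 were at or near 0. The first 4 were chosen after their values were seen. Dynlrb2, a dynein light chain gene, had 54.8, 46.8 and 190.7 TPM in APOE_H and was listed at 0 in all 3 APOE_L libraries. It had 147, 152 and 276 TPM in KA_H, 0, 55.1 and 0 TPM in KA_L and 0, 174 and 165 TPM in CTRL_L. Mia, which encodes a secreted protein, had 65.1, 171 and 129 TPM in APOE_H and 0, 0 and 30.2 TPM in APOE_L. Its levels were 146, 178 and 151 TPM in KA_H, 0 TPM in all 3 KA_L libraries and 0, 66.8 and 198 TPM in CTRL_L. Pifo had 63.0, 67.0 and 127 TPM in APOE_H, 0 TPM in all 3 APOE_L libraries, 84.4, 41.6 and 98.9 TPM in KA_H, 0, 51.8 and 0 TPM in KA_L and 0, 0 and 54.8 TPM in CTRL_L. Cfap126 had 29.0, 49.5 and 46.5 TPM in APOE_H, at most 0.11 TPM in APOE_L, 20.0, 32.9 and 102 TPM in KA_H, 0 TPM in all 3 KA_L libraries and 0, 37.1 and 44.6 TPM in CTRL_L. Trpm3, a cation channel gene on the list of further choroid plexus genes, was also picked by its values. It kept a level in some L libraries, at 0.03, 3.04 and 0.02 TPM in APOE_L, 0, 77.5 and 0.02 TPM in KA_L and 28.0, 204 and 121 TPM in CTRL_L. Other genes of that list did so too, such as Slc12a2, at 36.7, 17.9 and 67.9 TPM in APOE_L and 128, 87.6 and 97.5 TPM in KA_L. In the H libraries Trpm3 had 192, 164 and 158 TPM in APOE_H and 192, 16.3 and 154 TPM in KA_H. Whether these genes come from the same cells as the members was not tested.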
